A study of Saccharomyces cerevisiae with 72 samples.

Results

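Of the 6843 features in the count table, 44 genes are described here: 43 genes that encode enzymes of amino acid biosynthesis, and *GCN4*, which encodes the transcription factor that activates many of them. They were taken by systematic name: 7 genes of arginine, 4 of histidine, 7 of lysine, 10 of branched-chain, 8 of aromatic, 4 of threonine and 3 of serine synthesis. All 44 passed the filter on low counts, and a member's lowest count in a library was 14, for *ARG3*. RNA was sequenced from 72 yeast libraries, 36 in each of 2 tests that compared cells with rising DNA content, cells that were held in mitosis, and cells that kept dividing. In the *mad1Δ bub2Δ* test, polyploid cells (*mad1::URA3 bub2::HIS3*) grew in nocodazole, which depolymerizes microtubules. Their arrested counterparts, *MAD1 BUB2* cells, received the same drug, and cycling *mad1Δ bub2Δ* cells received DMSO, all at 30°C. In the *cdc24-1 swe1Δ* test, polyploid cells (*swe1::kanMX cdc24-1*) were shifted to 37°C, where a temperature-sensitive *CDC24* allele blocks budding. Arrested *cdc24-1 swe1Δ cdc20-1* cells were shifted in the same way and stop before anaphase, and cycling *cdc24-1 swe1Δ* cells stayed at the permissive temperature, labelled 25°C. All strains were of the W303 background, that of *cdc24-1 swe1Δ* by backcrossing from an S288C strain, and carried mutant alleles of *ADE2*, *LEU2*, *URA3*, *TRP1*, *HIS3* and *CAN1*, in rich medium with dextrose and added adenine. The arrested strain of the *cdc24-1 swe1Δ* test was MATα and the others MATa, and each cell type was a single strain, so strain and cell type cannot be told apart. Samples of polyploid and arrested cells were taken at 0, 4, 8, 12 and 16 h, and of cycling cells at the first and last of these, from 3 cultures per cell type. Cells called polyploid had not yet been driven to higher ploidy at 0 h. The labels give a mean DNA content per library in arbitrary units (AU), here in units of 1000 AU (kAU). Polyploid *mad1Δ bub2Δ* cells had 98.2 to 107 kAU at 0 h and 425 to 452 kAU at 16 h. Their *cdc24-1 swe1Δ* counterparts had 104 to 113 kAU and then 245 to 277 kAU.

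Wild-type yeast can make all its amino acids, but the strains here carried mutant alleles of *LEU2*, *TRP1* and *HIS3* as auxotrophic markers. Polyploid and cycling *mad1Δ bub2Δ* cells also held *HIS3* in place of *BUB2*, and their arrested counterparts did not. The effect of these markers on the levels was not tested. The general amino acid control couples the synthesis of the enzymes to supply. When uncharged tRNA accumulates, the kinase Gcn2 phosphorylates a translation factor, short upstream open reading frames in the *GCN4* leader are bypassed, and more Gcn4 protein is made from the same mRNA, which then binds the motif TGACTC in front of its target genes. The mRNA level of *GCN4* measured here therefore need not follow the amount of its protein. Leu3 and Lys14 are further activators, of leucine and lysine genes, that respond to intermediates of those pathways.

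The motif of Gcn4, TGACTC on either strand, stood within the 300 bases before the start codon of 30 of the 44 genes (68.2%), against 466 of 6001 protein-coding genes of the R64 assembly (7.77%). At least 2 matches were held by 5 of the 44 genes (11.4%) and by 39 of all genes (0.65%). All 4 histidine and all 4 threonine genes and 6 of 7 arginine genes had a match, as did 7 of 10 branched-chain, 4 of 8 aromatic, 3 of 7 lysine and 2 of 3 serine genes. *GCN4* itself had none, and the annotation lists 4 upstream open reading frames in its leader. The pattern of Leu3, CCGG repeated after a gap of 2 bases, was found before *LEU1* and *BAT1* only, 2 of 44 genes (4.55%) against 9 of all (0.15%). The pattern of Lys14, TCCNNNGGA, was found before 5 of the 44 (11.4%) and 189 of all (3.15%). A match is a description of the sequence and does not show that a factor bound there. Printed here are 30-base stretches, read in the direction of the gene with the match in capitals, for genes on which the results turn. *CPA1* had the largest rise at 16 h in polyploid cells of both tests, and *LEU1* the largest fall in *cdc24-1 swe1Δ* cells. *HIS4*, a classical Gcn4 target, has 3 matches, the first 2 in overlapping stretches, and *ARG5,6* and *HIS1* have 2 each. The first and last base of each stretch are given in R64 coordinates. *BAT2*, with the largest fall in *mad1Δ bub2Δ* cells, had no match to any of the 3 patterns.
CPA1, chrXV:882599-882628, plus strand: tttctTGACTCgtcgtttctttttcttttt
LEU1, chrVII:478850-478879, minus strand: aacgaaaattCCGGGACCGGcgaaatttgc
HIS4, chrIII:68571-68600, minus strand: aggcagtcgaacTGACTCtaatagtgactc
HIS4, chrIII:68559-68588, minus strand: tgactctaatagTGACTCcggtaaattagt
HIS4, chrIII:68515-68544, minus strand: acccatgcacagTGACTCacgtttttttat
ARG5,6, chrV:295175-295204, plus strand: ttcttatccgaaTGACTCagtctacatcaa
ARG5,6, chrV:295221-295250, plus strand: ggtggtaattgaTGACTCttctattttttt
HIS1, chrV:266050-266079, minus strand: ttgataacagcgTGACTCttcccggaaatt
HIS1, chrV:265951-265980, minus strand: aagcttccaagtGAGTCAcctctaccgttg

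Library totals ran from 1597321 to 9987276 estimated counts, with a median of 6918124, and ribosomal RNA took between 0.731% and 47.6% of a library. Polyploid *cdc24-1 swe1Δ* cells held the extremes: the highest share was in culture 1 at 12 h, followed by 16.7% in culture 2 at 16 h, and the lowest total was that of culture 3 at 16 h. In other groups the share reached at most 7.33%, and removing ribosomal RNA before the fits moved no count of called members by over 1.5 times. Levels are given as counts per 1e+06 (CPM) after TMM normalization, and changes are log2 fold changes ± standard errors from edgeR's quasi-likelihood fit, called at an adjusted p (Benjamini-Hochberg over all genes) under 0.05. *BUB2* had 0 counts in all polyploid and cycling libraries of the *mad1Δ bub2Δ* test, where 0 allows up to 3, and 46 to 117 in arrested ones. *MAD1* had 121 to 349 counts in polyploid, 372 to 1012 in arrested and 125 to 341 in cycling cells, so reads of this gene remained in all libraries labelled *mad1Δ*. The part that was deleted is not given in the sources used here, and *MAD1* does not check that label. In the other test 1 library, replicate 2 of arrested *cdc24-1 swe1Δ cdc20-1* cells at 16 h, went against its label. It held 152 *SWE1* counts, against 0 in the other 14 arrested libraries, and *STE2*, a marker of MATa cells, at 523 CPM, against 7.22 to 31.2 CPM. Left out, it changed none of the counts of called members that use arrested cells at 16 h: 18 for their change, 3 for its difference from polyploid cells and 1 for the slope on DNA content. TMM places the median gene near no change, at log2 changes of −0.038 to 0.090 in the comparisons below. On the scale of the deposited log2(TPM + 1) values, the median gene itself moved by 0.42 over 16 h in polyploid, 0.83 in arrested and −0.38 in cycling cells of the *mad1Δ bub2Δ* test. It moved by 0.65, 0.62 and 0.099 in those of the *cdc24-1 swe1Δ* test. Relative to the median gene the members lay nearly as far from it on either scale: their median differed from it by −0.16 (TMM) and −0.12 (TPM) at 16 h in polyploid cells of the first test, and by −0.72 and −0.67 in those of the second. A rise or fall given here is thus one against most other genes of the library, and counts of calls on the TPM scale are given beside most of those by TMM. The TPM counts include the shift of the median gene and are given without a share over all genes, so they do not set the members apart from other genes. In such bulk samples fewer cells of a kind and less RNA per cell cannot be told apart. For changes, p-values rest on a spread between replicate cultures that was estimated over all conditions of a test together. For slopes, they rest on the spread of all 36 libraries around the line. Both kinds of p-value treat libraries of the same culture as independent, unless a fit had a term for the culture. Neither measures a spread between strains.

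Replicate cultures stood apart in 3 places, and the first touches many results. The study states that the samples of a replicate over time came from the same culture, which the labels do not give. At 4 h, culture 3 of polyploid *cdc24-1 swe1Δ* cells lay under 50% of both other cultures in 34 of the 44 genes (4.43% of all genes did). It did so at 8 h in 18 (2.67%), at 12 h in 1 (1.74%) and at 16 h in 0 (4.13%). Its 4 h library had 9131978 counts and 1.99% ribosomal RNA, against 1.20% and 1.07% in cultures 1 and 2. At 0 h, replicate 3 was the highest of the 3 cultures in 41 of the 44 genes in polyploid *mad1Δ bub2Δ* cells (37.8% of all genes) and in 37 in cycling cells of the same strain (36.8%). In arrested cells it was the highest in 13 (30.1%). Polyploid *cdc24-1 swe1Δ* cells at 0 h had replicate 2 as the highest in 39 genes (39.4% of all genes). It was so in 29 in cycling cells (37.9%) and in 16 in arrested cells (34.8%). *HIS4* shows it, with 103, 119 and 419 CPM in polyploid and 81.3, 85.1 and 393 CPM in cycling *mad1Δ bub2Δ* cells at 0 h. Its levels were 309, 1122 and 289.6 CPM in polyploid and 420.0, 1282 and 261 CPM in cycling *cdc24-1 swe1Δ* cells. Deviations from the group mean over the 44 genes correlated between polyploid and cycling libraries of the same number at 0 h, at 0.29 to 0.74 in the *mad1Δ bub2Δ* and 0.46 to 0.87 in the *cdc24-1 swe1Δ* test (3 pairs each). Whether such libraries shared a starting culture is not given in the sources used here. The median change of the 43 enzyme genes from 0 to 16 h was 0.023, 0.13 and −0.65 in polyploid *mad1Δ bub2Δ* cultures 1, 2 and 3, and −0.36, −1.29 and −0.22 in those of *cdc24-1 swe1Δ* cells.

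*GCN4* (YEL009C, chromosome V, 138918 to 139763, minus strand) rose in both kinds of polyploid cells and stayed up to the last sample. In polyploid *mad1Δ bub2Δ* cells it had 954, 846 and 979 CPM at 0 h, 2445, 1758 and 2195 at 4 h, 2439.6, 2348 and 2587 at 8 h, 2189, 1823 and 2544 at 12 h and 1993, 2069.5 and 2531 at 16 h. In arrested cells of this test it had 1113, 1037 and 1155 CPM at 0 h, 1152, 1179.7 and 1093 at 4 h, 1740.4, 2095 and 1861 at 8 h, 1665, 1939 and 1966 at 12 h and 1505, 2212 and 1949 at 16 h. All 3 polyploid cultures were thus above their 0 h range by 4 h, when the arrested cultures still overlapped theirs, and by 8 h all 3 arrested cultures lay above their 0 h range too. The change at 4 h was 1.20 ± 0.15 (adjusted p = 6.1e-07) in polyploid and 0.052 ± 0.14 (adjusted p = 0.81) in arrested cells, and the difference between them was 1.15 ± 0.20 (adjusted p = 8.6e-05). At 16 h it was 1.25 ± 0.15 in polyploid and 0.78 ± 0.14 in arrested cells (adjusted p = 4.4e-08 and 3.2e-05), and the difference of 0.47 ± 0.20 did not pass (adjusted p = 0.092). Cycling cells had 1450.2, 1510.4 and 1539 CPM at 16 h, against 1020.1, 986 and 1095 at 0 h, a rise of 0.54 ± 0.14 (adjusted p = 0.0048) that was 0.084 and not called on the TPM scale.

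In polyploid *cdc24-1 swe1Δ* cells *GCN4* had 1115, 1072 and 1362 CPM at 0 h, 2049, 1852 and 1829 at 4 h, 2437, 2331 and 1880.0 at 8 h, 2428, 1984 and 2559 at 12 h and 2521, 2862 and 2543 at 16 h. Arrested cells of that test had 1194, 1003 and 1119.9 CPM at 0 h, 1271, 1611 and 1418 at 4 h, 1472, 1423 and 1578 at 8 h, 1509, 1439 and 1593 at 12 h and 1499.7, 1813 and 1837 at 16 h. The polyploid cultures lay above the arrested ones at every time from 4 h on, culture 3 included. The 16 h change was 1.16 ± 0.16 (adjusted p = 8.1e-07) in polyploid and 0.63 ± 0.15 (adjusted p = 0.00095) in arrested cells, with a difference of 0.52 ± 0.22 that did not pass (adjusted p = 0.12). Cycling cells showed no call, with 1334, 1307 and 1060.0 CPM at 16 h against 1333, 1174 and 1312 at 0 h, and the polyploid change exceeded theirs by 1.20 ± 0.22 (adjusted p = 0.00012). In the *mad1Δ bub2Δ* test the polyploid change exceeded that of cycling cells by 0.71 ± 0.20 (adjusted p = 0.006), a call lost when replicate 3 of polyploid and cycling cells was left out (0.57). Per length, *GCN4* was the most abundant of the 44 mRNAs at 0 h, at a mean of 1057 ± 98.0 transcripts per 1e+06 (TPM; SD, n = 18 libraries). *ILV5* at 706 ± 125 TPM and *BAT1* at 639 ± 138 TPM came next and did not differ beyond their spread. *LYS2* at 35.9 TPM and *ARG3* at 21.0 TPM were the lowest.

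**Figure D1:**
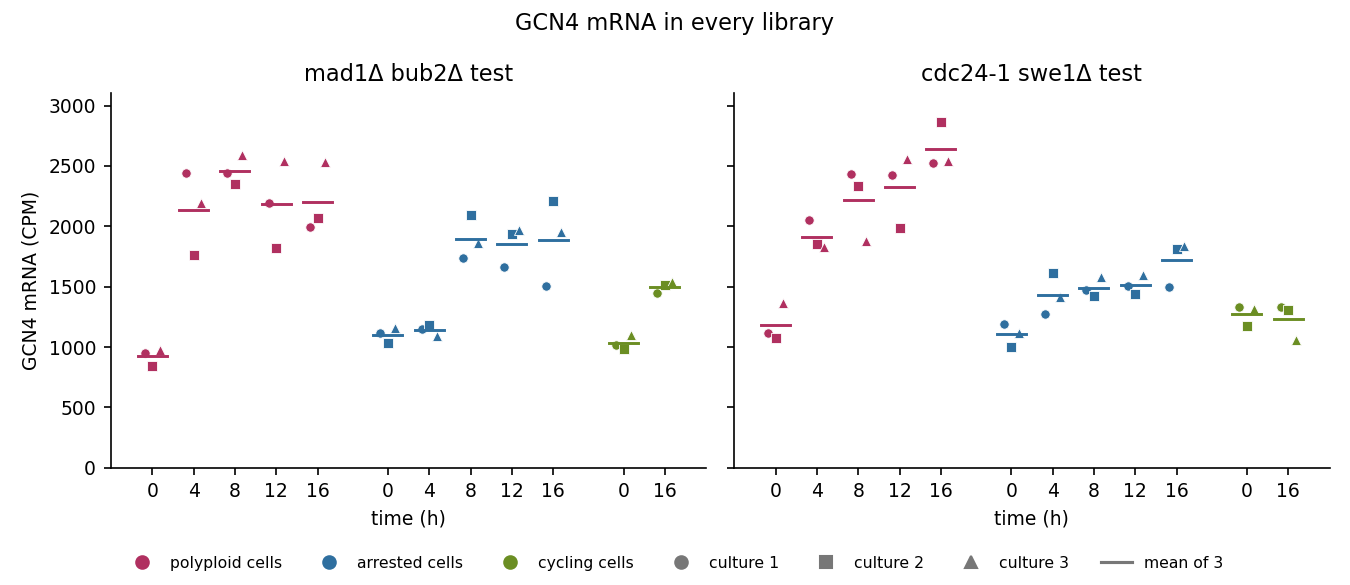
*GCN4* level in CPM (vertical axis) against time in h (horizontal axis) in the *mad1Δ bub2Δ* test and the *cdc24-1 swe1Δ* test, with polyploid, arrested and cycling cells from left to right, a marker for each of 3 cultures and a bar for their mean. In polyploid *mad1Δ bub2Δ* cells the 3 cultures lay between 1758 and 2445 CPM at 4 h, and in arrested cells between 1093 and 1180 CPM.

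At 16 h the enzyme genes did not move as a block. By TMM, 5 of 7 arginine genes rose in polyploid *mad1Δ bub2Δ* cells (23.2% of all genes) and 1 of 7 in polyploid *cdc24-1 swe1Δ* cells (26.0%). Branched-chain and threonine genes were among those that fell in both. In polyploid *mad1Δ bub2Δ* cells 10 of the 44 members were higher (22.7%, against 23.2% of all genes) and 16 lower (36.4%, against 21.7%), with a median change of −0.12, against 0.03 over all genes. On the TPM scale the split was 16 higher and 5 lower, 15 of them called in the same direction on both scales and none in opposite directions. In polyploid *cdc24-1 swe1Δ* cells only *CPA1* and *GCN4* were higher (4.55%, against 26.0% of all genes) and 21 members were lower (47.7%, against 23.4%), with a median of −0.65, against 0.07. That split was 4 higher and 5 lower on the TPM scale, and 13 members in all were called without culture 2 and 33 without culture 3. Both tests called *CPA1* and *GCN4* higher and the same 16 members lower, namely *LYS9*, *LYS20*, *ILV1*, *ILV3*, *LEU1*, *LEU9*, *BAT1*, *BAT2*, *TRP3*, *ARO2*, *ARO3*, *HOM2*, *THR1*, *THR4*, *SER1* and *SER33*, and none in opposite directions. On the TPM scale *THR4* in polyploid *mad1Δ bub2Δ* cells was at 0.076 instead of −0.34, while the others of these 18 kept their sign in both tests.

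Arrested cells moved many of these genes too. In arrested *MAD1 BUB2* cells 6 members were higher (31.7% of all genes were) and 22 lower (26.1% of all genes), with a median of −0.39, against 0.09 over all genes. On the TPM scale 19 were higher and 7 lower, with 8 of the 22 above 0. In arrested *cdc24-1 swe1Δ cdc20-1* cells 6 were higher (28.0% of all genes) and 12 lower (23.9%), with a median of −0.27, against 0.07. The split on the TPM scale was 8 and 6. Without the library that went against its label 18 were again called, but 9 without replicate 1 or 3. Cycling *mad1Δ bub2Δ* cells had 4 members higher (19.9% of all genes) and 14 lower (17.2%), or 1 and 26 on the TPM scale, and a single replicate decided that count, which was 6 without replicate 2. Cycling *cdc24-1 swe1Δ* cells had 1 member lower, *HIS4*, and 0 higher (6.77% and 6.87% of all genes), and none on the TPM scale. *HIS4* there had 262, 179 and 142 CPM at 16 h, against 420.0, 1282 and 261 at 0 h (−1.75 ± 0.55), and was not called without replicate 2 or 3.

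**Figure D2:**
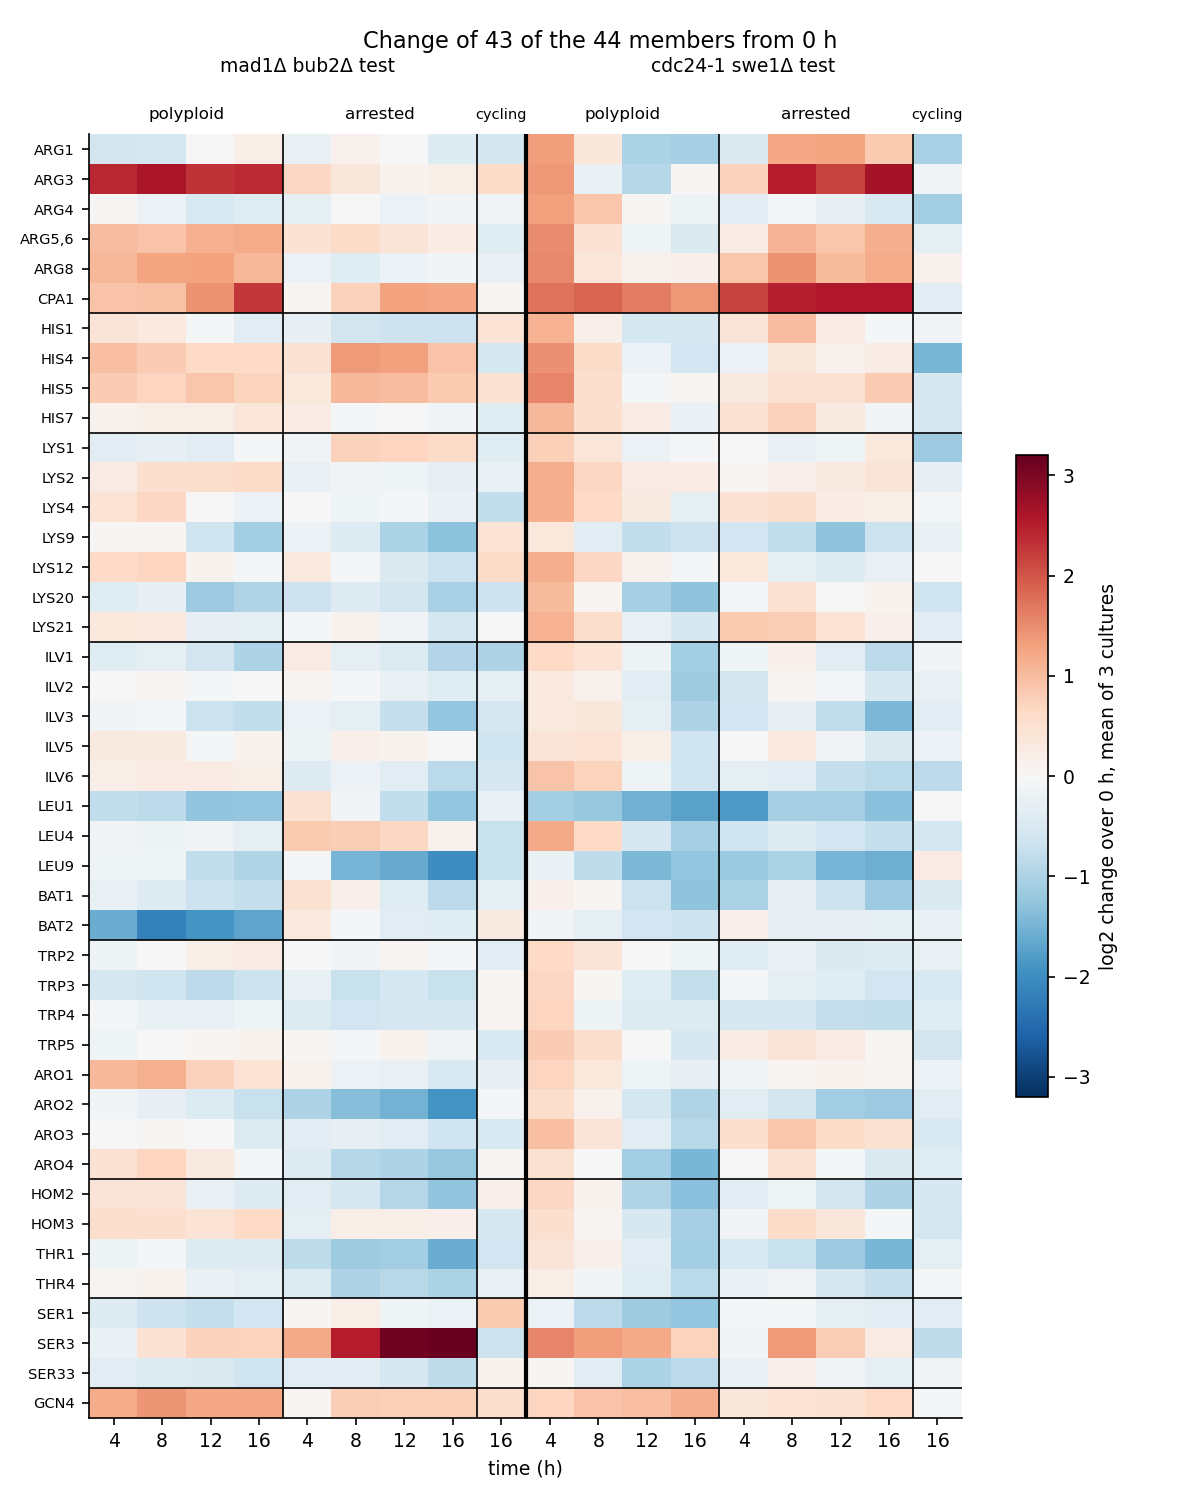
Mean log2 change over 0 h of the same cells (colour, mean of 3 cultures) for 43 of the 44 members, ordered by pathway (vertical), at each time of polyploid, arrested and cycling cells of the 2 tests (horizontal). The 4 h column of polyploid *cdc24-1 swe1Δ* cells is the one in which most members are higher, 29 of them called, and the branched-chain and threonine genes are mostly lower at 16 h.

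The arginine genes formed the group with the most rises. *CPA1* encodes the small subunit of the carbamoyl phosphate synthetase that serves arginine, *ARG3* ornithine carbamoyltransferase, *ARG5,6* the kinase and reductase of the acetylated branch, and *ARG8* acetylornithine aminotransferase. These 4 rose by 16 h in polyploid *mad1Δ bub2Δ* cells, on both scales. *CPA1* (YOR303W, chromosome XV, 882899 to 884134, plus strand) had 788, 641 and 859 CPM in them at 16 h, against 117, 116 and 289 at 0 h (2.13 ± 0.28, adjusted p = 4e-07). *CPA1* also rose in arrested cells of this test, by 1.26 ± 0.28, and the difference from the polyploid change was not called (0.87 ± 0.39). *ARG3* had 35.6, 30.7 and 25.4 CPM in polyploid cells at 16 h, against 3.199, 2.60 and 19.2 at 0 h (1.87 ± 0.42), and in arrested cells 83.1, 87.7 and 78.4 CPM, against 80.6, 71.8 and 66.1. Polyploid cells thus began far below the arrested ones in this gene and remained below them. The change of *ARG3* differed between polyploid and arrested cells by 1.68 ± 0.56 (adjusted p = 0.028), a call lost when any of the 3 arrested cultures or polyploid culture 1 or 2 was left out (1.15 to 1.77). *ARG8* rose by 1.04 ± 0.19 in polyploid and changed by −0.082 ± 0.18 in arrested cells, a difference of 1.12 ± 0.26 (adjusted p = 0.0022) that was 0.73 and not called on the TPM scale. *ARG1*, argininosuccinate synthase, and *ARG4*, argininosuccinate lyase, the last steps of the pathway, passed in neither (0.15 ± 0.31 and −0.43 ± 0.31 in polyploid cells).

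By 16 h in the *cdc24-1 swe1Δ* test the rises of arginine genes were mainly in arrested cells, where *ARG3*, *ARG5,6*, *ARG8* and *CPA1* rose, on both scales, and in polyploid cells only *CPA1* did. *CPA1* had 511, 521 and 641 CPM in polyploid cells at 16 h, against 182, 333 and 158 at 0 h (1.31 ± 0.36, adjusted p = 0.0033). In arrested cells it had 1119, 497 and 990.0 CPM at 16 h, against 122, 168 and 127 at 0 h (2.64 ± 0.38), and the lowest of the 16 h values is that of the library that went against its label. *ARG3* had 33.3, 20.1 and 44.9 CPM in polyploid cells at 16 h, against 21.0, 45.8 and 28.6 at 0 h (0.0084 ± 0.55, not called), and in arrested cells 36.6, 38.7 and 42.2 CPM, against 4.92, 6.89 and 6.18 (2.69 ± 0.61). The arrested cells started lower, so that the groups overlapped at 16 h and not at 0 h. The change of *ARG3* differed between polyploid and arrested cells by −2.68 ± 0.82 (adjusted p = 0.03), with the opposite sign to that in the other test. It was not called on the TPM scale or without polyploid culture 2 or any 1 arrested culture.

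Of the 4 histidine genes 2 rose in polyploid *mad1Δ bub2Δ* cells by 16 h (23.2% of all genes). *HIS5*, histidinol-phosphate aminotransferase, had 114, 109.6 and 95.4 CPM in polyploid *mad1Δ bub2Δ* cells at 16 h, against 55.3, 61.8 and 80.2 at 0 h (0.69 ± 0.21, adjusted p = 0.0078), and *HIS7*, imidazole glycerol phosphate synthase, rose by 0.40 ± 0.14. The rise of *HIS5* was not called without culture 1 (0.53) or 2 (0.62). *HIS5* rose by 0.83 ± 0.21 in arrested cells of that test as well, where *HIS1*, ATP phosphoribosyltransferase, was lower by TMM (−0.67 ± 0.21) and at 0.087 on the TPM scale. None of the 4 passed in polyploid or arrested cells of the *cdc24-1 swe1Δ* test at 16 h. *HIS4*, which encodes an enzyme of several steps, had 268, 275 and 265 CPM in polyploid *mad1Δ bub2Δ* cells at 16 h, against 103, 119 and 419 at 0 h (0.33 ± 0.43, not called). The 0 h values lay on both sides of those at 16 h.

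Lysine is made from homocitrate, and *LYS20* and *LYS21* encode homocitrate synthases whose coding sequences share 95.0% of 1172 aligned bases, so reads may have been divided between them. *LYS20* had 76.0, 129.6 and 80.2 CPM in polyploid *mad1Δ bub2Δ* cells at 16 h, against 166, 149 and 234 at 0 h (−0.94 ± 0.21, adjusted p = 0.00045). In arrested cells it had 214, 235 and 189.6 CPM, against 483, 424 and 409 (−1.04 ± 0.21). Cycling cells had 186, 136 and 215 CPM at 16 h, against 292, 313 and 233 at 0 h (−0.64 ± 0.20). It thus fell in all 3 cell types, without overlap between 16 h and 0 h, from a level that was lower in polyploid than in arrested cells, and on the TPM scale the fall in arrested cells was not called. The polyploid *cdc24-1 swe1Δ* cells had 80.4, 60.8 and 148 CPM at 16 h, against 218, 301 and 160.3 at 0 h (−1.26 ± 0.46, adjusted p = 0.022). This fall was not called on the TPM scale, in the fit with the culture as a block or without culture 1 or 2. *LYS21* was not called in either kind of polyploid cells (−0.30 ± 0.15 and −0.52 ± 0.31), with 122, 134 and 112 CPM at 16 h and 141, 122 and 191 at 0 h in *mad1Δ bub2Δ* cells. *LYS9*, a saccharopine dehydrogenase, had 88.0, 81.4 and 78.0 CPM in polyploid *mad1Δ bub2Δ* cells at 16 h, against 191, 160.0 and 173 at 0 h (−1.08 ± 0.16, adjusted p = 2.1e-06). By TMM it fell in all 4 groups of polyploid and arrested cells. On the TPM scale its falls in polyploid and arrested cells of the *cdc24-1 swe1Δ* test were not called. *LYS2*, aminoadipate reductase, rose in polyploid *mad1Δ bub2Δ* cells (0.54 ± 0.19), and *LYS1*, the last enzyme of the pathway, rose in the arrested ones (0.61 ± 0.16). The changes of polyploid and arrested cells differed in that test for *LYS1*, *LYS2* and *LYS12*, homoisocitrate dehydrogenase (−0.67, 0.80 and 0.63), and each of these calls was lost when any 1 arrested culture was left out.

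Isoleucine, valine and leucine share most of their enzymes, and 6 of these 10 genes fell by 16 h in polyploid cells of the *mad1Δ bub2Δ* test, with 0 rises. This is 6 of 10 where 21.7% of all genes fell, and 7 fell in arrested and 6 in cycling cells of that test as well (26.1% and 17.2% of all genes). In the *cdc24-1 swe1Δ* test 9 fell in polyploid (23.4% of all genes), 6 in arrested (23.9%) and 0 in cycling cells. By TPM 3 fell and 2 rose in polyploid, 2 fell and 2 rose in arrested and 9 fell in cycling cells of the first test, and 3, 4 and 0 fell in those of the second. *LEU1* (YGL009C, chromosome VII, 476313 to 478652, minus strand), isopropylmalate isomerase, had 927, 771 and 601 CPM in polyploid *mad1Δ bub2Δ* cells at 16 h, against 1577, 1546 and 2262 at 0 h (−1.23 ± 0.18). Polyploid *cdc24-1 swe1Δ* cells had 386, 345 and 534 CPM at 16 h, against 1079, 1599.7 and 1478 at 0 h (−1.72 ± 0.18, adjusted p = 1.9e-08). It fell by similar amounts in arrested cells, −1.25 ± 0.18 and −1.32 ± 0.18, and neither difference between polyploid and arrested changes was called (0.021 ± 0.25 and −0.40 ± 0.24). In cycling cells it was not called, except as lower on the TPM scale in the *mad1Δ bub2Δ* test (−0.62), with 1269, 1279 and 1319 CPM at 16 h against 1129, 1314 and 1477 at 0 h in the *cdc24-1 swe1Δ* test.

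*LEU4* and *LEU9* encode isopropylmalate synthases (81.3% of 1637 aligned coding bases), and only the second fell in every polyploid and arrested group. *LEU9* had 144, 182 and 137 CPM in polyploid *mad1Δ bub2Δ* cells at 16 h, against 292, 241 and 375 at 0 h (−0.97 ± 0.17). It had 129.8, 104 and 199 CPM in polyploid *cdc24-1 swe1Δ* cells, against 363, 289 and 341 (−1.21 ± 0.26). In arrested *MAD1 BUB2* cells it fell further, to 98.4, 99.0 and 86.7 CPM at 16 h, against 329.5, 423 and 375 at 0 h. The changes differed by 1.02 ± 0.24 (adjusted p = 0.0021), not called on the TPM scale (0.63). *LEU4* had 646, 695 and 629 CPM in polyploid *mad1Δ bub2Δ* cells at 16 h, against 822, 689 and 978 at 0 h (−0.34 ± 0.19, not called). It had 413, 310.2 and 527 CPM in polyploid *cdc24-1 swe1Δ* cells, against 801, 1018 and 769.6 (−1.05 ± 0.35), a call lost on the TPM scale and without culture 1 or 2. The aminotransferases of the last step, mitochondrial *BAT1* and cytosolic *BAT2* (72% of 1117 aligned coding bases), fell in both kinds of polyploid cells. *BAT1* had 680.3, 664 and 535 CPM in *mad1Δ bub2Δ* cells at 16 h, against 896, 897 and 1458 at 0 h (−0.79 ± 0.16). It had 352, 277 and 468 CPM in *cdc24-1 swe1Δ* cells, against 764, 1152 and 774 (−1.30 ± 0.21). *BAT2* had 192, 179 and 149 CPM in polyploid *mad1Δ bub2Δ* cells at 16 h, against 749, 687 and 330.3 at 0 h (−1.76 ± 0.22, adjusted p = 9.8e-08), and was already down at 4 h, at 244, 190.1 and 137 CPM. Here replicate 3 was the lowest culture at 0 h, unlike in most members. In arrested *MAD1 BUB2* cells *BAT2* had 162, 209 and 187 CPM at 16 h, against 256, 228 and 238 at 0 h (−0.37 ± 0.21, not called). The changes differed by −1.39 ± 0.30 (adjusted p = 0.001). The fall of *BAT2* in polyploid *cdc24-1 swe1Δ* cells was to 148, 144 and 149 CPM, against 220.4, 240.4 and 239 (−0.66 ± 0.14), and −0.038 and not called on the TPM scale. *ILV6*, the regulatory subunit of acetolactate synthase, fell in both arrested groups (−0.85 and −0.88) and was not called in the polyploid ones (0.17 and −0.62). The difference between the changes passed in the *mad1Δ bub2Δ* test (1.02 ± 0.29, adjusted p = 0.0095, lost on the TPM scale and without polyploid culture 2) and not in the other (0.26 ± 0.46).

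Of the 8 aromatic genes, which lead to chorismate and on to tryptophan, 3 fell in polyploid, 6 in arrested and 2 in cycling cells of the *mad1Δ bub2Δ* test (21.7%, 26.1% and 17.2% of all genes). In the other test 4 fell in polyploid and 2 in arrested cells (23.4% and 23.9%). By TPM 0 fell and 2 rose in polyploid cells of the first and 1 fell in those of the second. *ARO2*, chorismate synthase, had 272, 305 and 255 CPM in polyploid *mad1Δ bub2Δ* cells at 16 h, against 413, 402 and 565 at 0 h (−0.73 ± 0.15, adjusted p = 0.00026). It had 169, 143 and 177 CPM in arrested cells, against 619, 604 and 624 (−1.92 ± 0.16). The difference of 1.19 ± 0.22 (adjusted p = 0.00017) was called on the TPM scale as well. The same held for *ARO4*, one of 2 enzymes that open the pathway (1.15 ± 0.23), while for *ARO1*, which encodes a multifunctional enzyme, the call (0.85 ± 0.27) was lost on the TPM scale and without any 1 of 4 cultures. *ARO3* encodes the other opening enzyme (67.1% of 951 aligned bases) and had 247, 257 and 239 CPM in polyploid *mad1Δ bub2Δ* cells at 16 h, against 255, 294 and 501 at 0 h (−0.50 ± 0.20). Its fall was not called on the TPM scale or without culture 3. *ARO4* had 349.8, 386 and 308 CPM at 16 h, against 297, 309 and 494 at 0 h there (−0.075 ± 0.16, not called). *ARO4* had 186, 149 and 290.1 CPM in polyploid *cdc24-1 swe1Δ* cells at 16 h, against 445, 675 and 549 at 0 h (−1.43 ± 0.31, adjusted p = 0.00039). *ARO3* had 268, 170.0 and 272 CPM in them, against 345, 591 and 376 (−0.89 ± 0.36, not called without culture 2). *ARO2* and *TRP3*, of tryptophan synthesis, fell there too (−0.96 and −0.78), and *TRP2*, *TRP4*, *TRP5* and *ARO1* did not pass.

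The threonine genes fell in polyploid cells, 3 of 4 in the *mad1Δ bub2Δ* test (21.7% of all genes) and all 4 in the *cdc24-1 swe1Δ* test (23.4%). None of these falls was called on the TPM scale. In arrested cells 3 of 4 fell in each test as well (26.1% and 23.9% of all genes), or 2 and 1 by TPM. The median change of the 4 genes was −0.38 in polyploid and −1.14 in arrested cells of the first test, and −1.07 and −0.85 in those of the second. *HOM2*, aspartate semialdehyde dehydrogenase, had 435, 416 and 391 CPM in polyploid *mad1Δ bub2Δ* cells at 16 h, against 493, 466 and 727 at 0 h (−0.44 ± 0.14). It had 328, 213 and 433 CPM in polyploid *cdc24-1 swe1Δ* cells, against 688, 986 and 724 (−1.30 ± 0.36). The first of these falls was not called without culture 3 (−0.17), the second not without culture 2 (−0.89). Arrested *MAD1 BUB2* cells had 281, 328 and 313 CPM at 16 h, against 730.1, 748 and 735 at 0 h. The change in polyploid minus that in arrested cells was 0.82 ± 0.20 for *HOM2*, 1.18 ± 0.22 for *THR1*, homoserine kinase, and 0.68 ± 0.20 for *THR4*, threonine synthase. The call of *THR1* remained on the TPM scale, and those of *HOM2* and *THR4* did not.

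*SER3* and *SER33* encode phosphoglycerate dehydrogenases (83.3% of 1391 aligned bases), and *SER3* had the largest difference between polyploid and arrested changes among the 44 in the *mad1Δ bub2Δ* test. *SER3* also overlaps the noncoding RNA *SRG1* by 77 bases on the same strand, which counting by gene cannot separate. *SER3* had 135, 123 and 127 CPM in polyploid *mad1Δ bub2Δ* cells at 16 h, against 68.8, 74.4 and 91.5 at 0 h (0.71 ± 0.15, adjusted p = 0.00035). In arrested cells it had 41.6, 34.4 and 41.9 CPM at 0 h, 92.2, 86.3 and 92.8 at 4 h, 222, 235 and 224 at 8 h, 373, 289 and 373 at 12 h and 349, 325 and 379.9 at 16 h (3.16 ± 0.17, adjusted p = 6.6e-16). The order of the groups turned round between 0 h, where all polyploid cultures were above all arrested ones, and 16 h, and the difference of changes was −2.45 ± 0.22 (adjusted p = 2.4e-09). *SER3* had 255, 165 and 261 CPM in polyploid *cdc24-1 swe1Δ* cells at 16 h, against 111, 199 and 114 at 0 h (0.68 ± 0.32, not called). It had 189, 122 and 192 CPM in arrested cells of that test, against 150.2, 146 and 119.6 (0.28 ± 0.31, not called). *SER33* fell too, to 95.9, 75.8 and 67.7 CPM in polyploid *mad1Δ bub2Δ* cells, against 119.7, 105 and 151 at 0 h (−0.65 ± 0.22). It fell to 62.7, 77.6 and 98.6 CPM in polyploid *cdc24-1 swe1Δ* cells, against 109, 182 and 141 (−0.87 ± 0.18). These falls were −0.24 and −0.22 on the TPM scale and were not called, and the first was not called without culture 3. *SER1*, phosphoserine aminotransferase, fell as well, to 90.8, 92.5 and 77.2 CPM in polyploid *mad1Δ bub2Δ* cells, against 145, 135 and 118 at 0 h (−0.61 ± 0.18). Its level fell to 80.8, 64.4 and 69.0 CPM in polyploid *cdc24-1 swe1Δ* cells, against 141, 197 and 167 (−1.23 ± 0.20, adjusted p = 1.1e-05). On the TPM scale the fall of *SER1* in polyploid *mad1Δ bub2Δ* cells was −0.20 and not called. Cycling *mad1Δ bub2Δ* cells went the other way in *SER1*, with 198, 246 and 178 CPM at 16 h, against 116, 109 and 119 at 0 h.

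**Figure D3:**
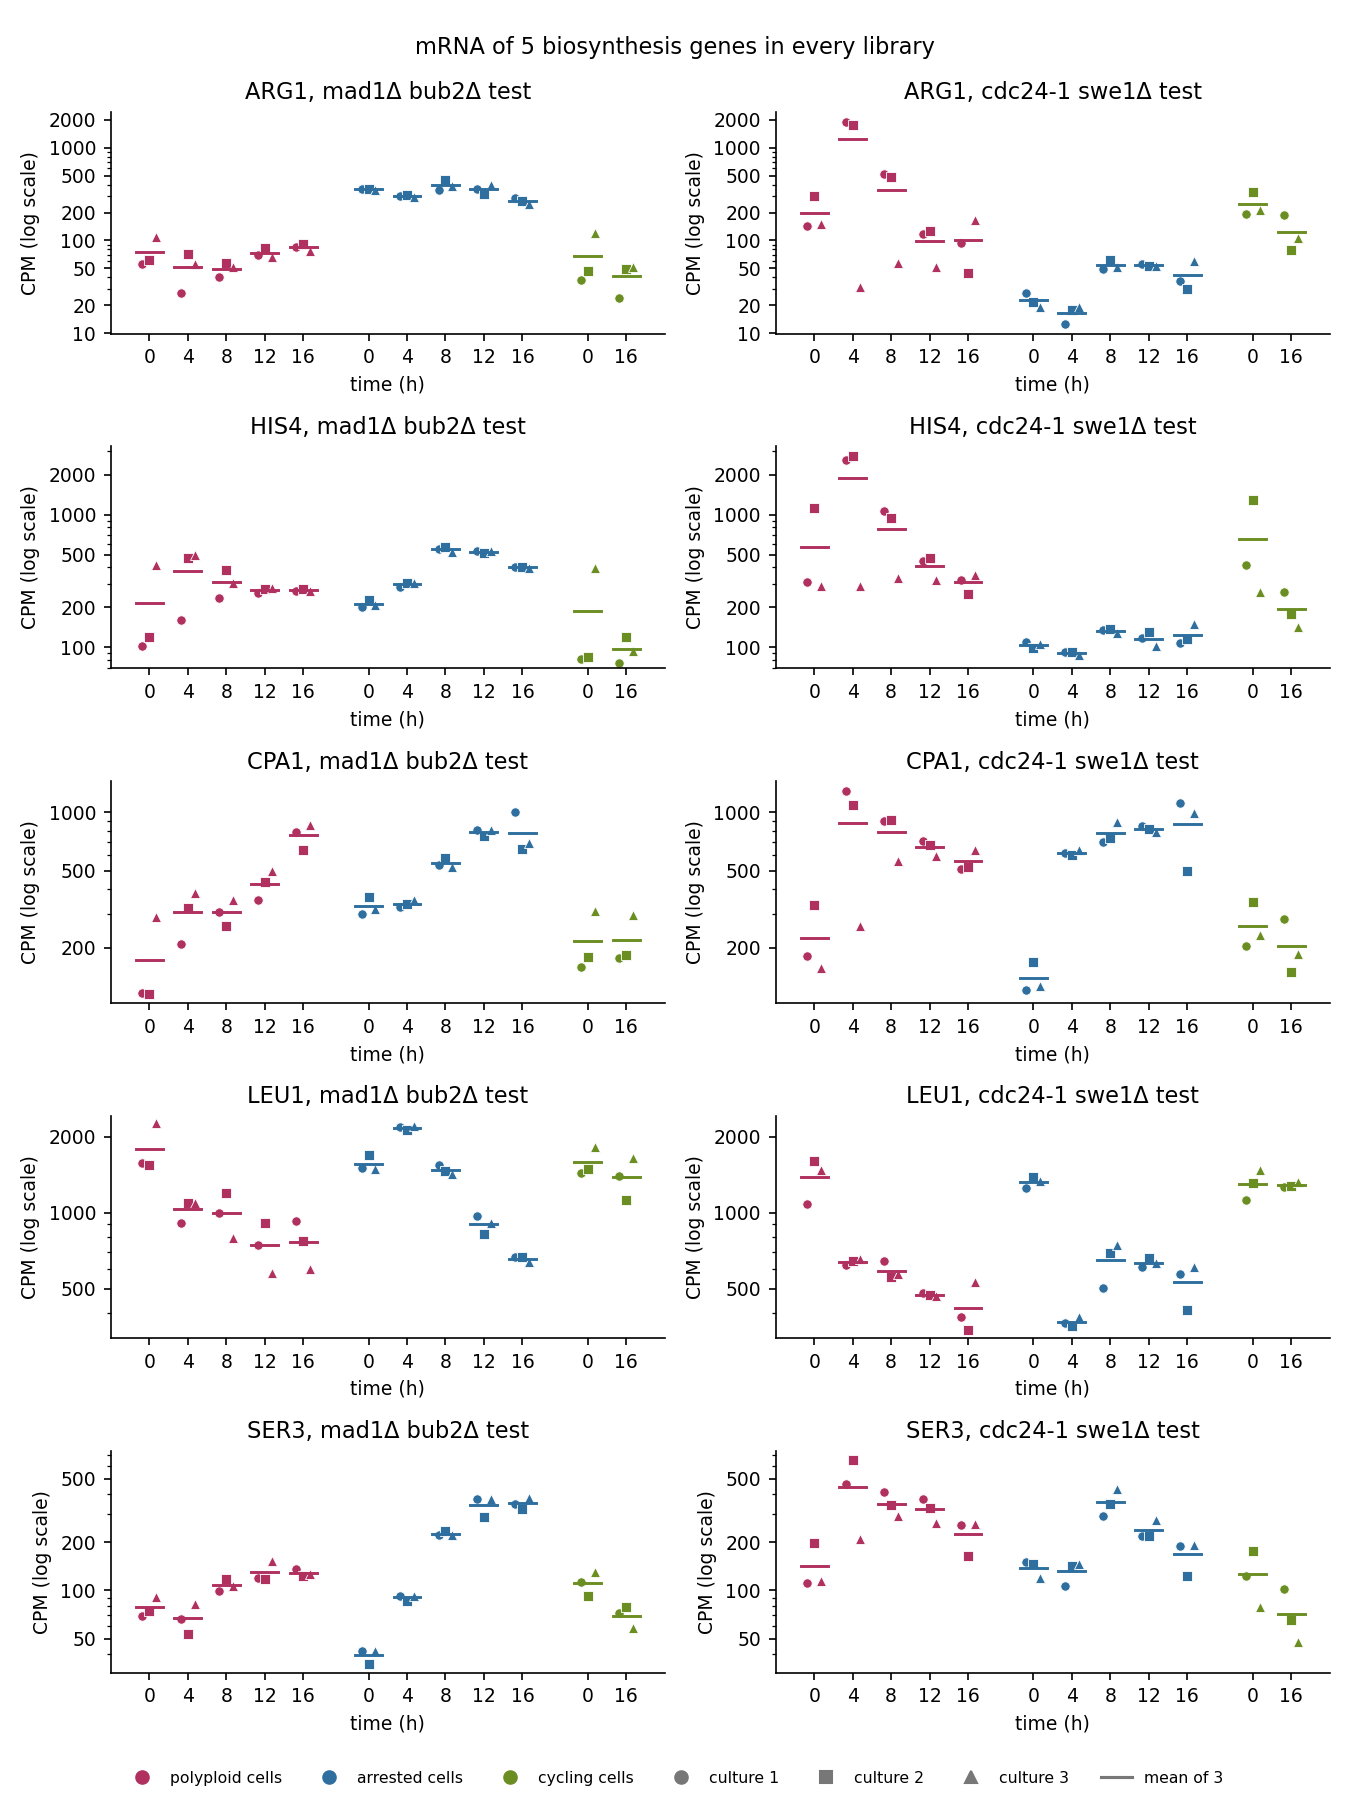
CPM on a log scale (vertical axis) against time in h for *ARG1*, *HIS4*, *CPA1*, *LEU1* and *SER3* in the 2 tests, with polyploid, arrested and cycling cells from left to right, a marker per culture and a bar at the mean. At 4 h *ARG1* separates the polyploid *cdc24-1 swe1Δ* cultures, at 1912 and 1749 CPM in cultures 1 and 2 and 31.7 CPM in culture 3.

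At 4 h, the first sample after the start, polyploid *cdc24-1 swe1Δ* cells had raised most of these genes, in 2 of 3 cultures. Of the 44 members 29 were higher (65.9%, against 17.0% of all genes) and 1, *LEU1*, was lower (11.7% of all genes), with a median of 0.96, against 0.02 over all genes. All 7 arginine and all 4 histidine genes rose, with 6 of 7 lysine, 6 of 8 aromatic, 3 of 10 branched-chain, 1 of 4 threonine and 1 of 3 serine genes. By TPM these were 4 arginine, 3 histidine, 4 lysine, 2 aromatic, 2 branched-chain, 0 threonine and 1 serine genes, and without culture 1 they were 3, 1, 2, 0, 0, 0 and 1. *ARG1* had 1912, 1749 and 31.7 CPM at 4 h, against 143, 303 and 149.8 at 0 h (2.63 ± 0.73, adjusted p = 0.0067). *HIS4* had 2580.1, 2758 and 289.5 CPM at 4 h, against 309, 1122 and 289.6 at 0 h (1.71 ± 0.55, adjusted p = 0.017). Culture 3 did not share the rise in either gene, and its value lay at or below its own at 0 h. *ARG5,6* had 1265, 1313 and 119 CPM, against 156, 296 and 185 (2.08 ± 0.45), *LEU4* 3123, 3428 and 730.1 CPM, against 801, 1018 and 769.6 (1.49 ± 0.35), and *LYS20* 976, 834 and 108 CPM, against 218, 301 and 160.3 (1.50 ± 0.45). The median change of the 43 enzyme genes was 1.63 in culture 1, 1.05 in culture 2 and −0.26 in culture 3, and 41, 38 and 10 of them lay above 0. The 44 genes together made up 2.50%, 2.78% and 0.80% of the TPM outside ribosomal RNA at 4 h in the 3 cultures, against 0.83%, 1.19% and 0.85% at 0 h. *LEU1* fell in all 3 cultures, to 619, 645 and 657 CPM, against 1079, 1599.7 and 1478 at 0 h (−1.11 ± 0.17), and *GCN4* was higher in all 3. With all cultures 30 members were called, 36 without culture 3 and 9 without culture 1, and on the TPM scale 17 were higher and 1 lower.

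**Figure D4:**
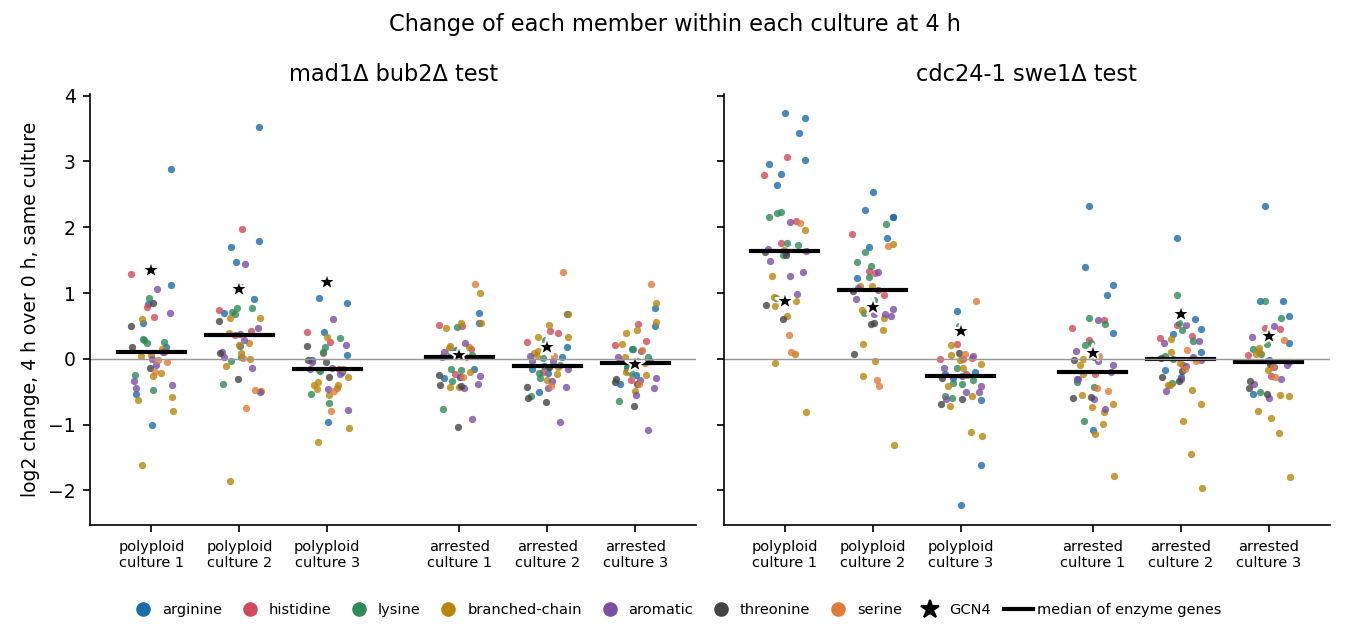
Log2 change from 0 to 4 h within each culture (vertical axis) for each of the 44 members, coloured by pathway, with a star for *GCN4* and a bar at the median of the 43 enzyme genes, for polyploid and arrested cells of the 2 tests. The bar of polyploid *cdc24-1 swe1Δ* cells stands at 1.63 and 1.05 in cultures 1 and 2 and at −0.26 in culture 3.

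In arrested *cdc24-1 swe1Δ cdc20-1* cells at 4 h, 2 members were higher, *CPA1* and *LYS21* (20.6% of all genes), and 3 lower, *LEU1*, *LEU9* and *BAT1* (20.7%), or 4 and 3 on the TPM scale. *CPA1* had 613, 599 and 642 CPM there, against 122, 168 and 127 at 0 h (2.15 ± 0.37), beside 1.96 ± 0.37 in polyploid cells, a difference of −0.19 ± 0.50 that was not called. *LEU1* had 364, 356 and 386 CPM, against 1253, 1389 and 1342 (−1.85 ± 0.18). A comparison of these changes, polyploid minus arrested, was chosen after the values had been seen. It had a median of 1.01 over the members (0.02 over all genes) and was called higher for 5 of them (4.33% of all genes) and lower for 0 (2.90%), with 13 called by DESeq2. These were *LEU4*, *BAT1*, *TRP2*, *TRP4* and *SER3*, with differences of 1.17 to 2.14. The count was 34 without polyploid culture 3, and 0 without polyploid culture 1 or on the TPM scale. In polyploid *mad1Δ bub2Δ* cells at 4 h the members did not move together: 9 were higher (13.3% of all genes) and 3 lower (10.9%). On the TPM scale, with the median gene at −0.24, 5 were higher and 8 lower. By TMM *ARG3*, *ARG8*, *CPA1*, *HIS5*, *LYS4*, *LYS12*, *ARO1*, *HOM2* and *GCN4* rose, and *LEU1*, *BAT2* and *TRP3* fell. Without replicate 3 of polyploid and cycling cells 20 members were called. In arrested *MAD1 BUB2* cells 4 were higher (20.7% of all genes), *LEU1*, *LEU4*, *BAT1* and *SER3*, and 6 lower (17.9%). When a replicate was left out, 4 or 5 were called in all. On the TPM scale, with the median gene at 0.36, 12 were higher and 1 lower. The difference at 4 h was called for 7 members higher in polyploid cells (12.0% of all genes) and 5 lower (13.6%). On the TPM scale, with the median gene at −0.62, these were 1 and 14. Without polyploid culture 3 the difference was called for 19. Thus *LEU1* fell in polyploid and rose in arrested cells (−0.80 and 0.48, difference −1.27 ± 0.25, adjusted p = 0.00031), while *ARO2* fell in arrested cells only (−0.10 and −0.99, difference 0.89 ± 0.22).

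At 0 h the polyploid and arrested strains already differed in arginine genes, in opposite directions in the 2 tests. Polyploid *mad1Δ bub2Δ* cells were lower than arrested *MAD1 BUB2* cells in 12 members (3.87% of all genes) and higher in 3 (5.91%), and 5 of the 12 were arginine and 6 lysine genes. *ARG1* had 55.6, 62.0 and 110.2 CPM in polyploid and 361, 355 and 352 CPM in arrested cells (−2.23 ± 0.32), and *ARG3* 3.199, 2.60 and 19.2 and 80.6, 71.8 and 66.1 CPM (−3.12 ± 0.42). No polyploid culture reached the arrested level in either gene, replicate 3 included, and the count of 15 was 9 without arrested replicate 3 and 26 without replicate 3 of polyploid and cycling cells. Polyploid *cdc24-1 swe1Δ* cells were higher than arrested *cdc24-1 swe1Δ cdc20-1* cells in 10 members (4.64% of all genes) and lower in 0 (4.61%), and 4 of the 10 were arginine and 3 histidine genes. *ARG1* had 143, 303 and 149.8 CPM in polyploid and 27.3, 21.5 and 19.3 CPM in arrested cells there (3.14 ± 0.77), and *HIS4* 309, 1122 and 289.6 and 109, 98.6 and 105 CPM (2.46 ± 0.56). Without polyploid culture 3 the count was 24, and without any 1 of polyploid culture 2 and the arrested cultures it was 2 or 3. On the TPM scale 3 members were higher and 8 lower in the *mad1Δ bub2Δ* test, and 3 higher and 0 lower in the other.

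The changes over 16 h differed between polyploid and arrested cells in more members in the *mad1Δ bub2Δ* test than in the other. In that test 12 members were higher in polyploid cells (27.3%, against 11.3% of all genes) and 3 lower (6.82%, against 12.6%), with a median of 0.32, against −0.04. The 12 were *ARG3*, *ARG8*, *LYS2*, *LYS12*, *ILV6*, *LEU9*, *ARO1*, *ARO2*, *ARO4*, *HOM2*, *THR1* and *THR4*, and the 3 were *LYS1*, *BAT2* and *SER3*. Of the 12, all but *ARG3*, *ARG8* and *LYS2* had fallen in arrested cells. On the TPM scale 4 were higher (*ARG3*, *ARO2*, *ARO4* and *THR1*) and 4 lower, and the count was 22 without polyploid culture 3 and 9 without polyploid culture 2. In the *cdc24-1 swe1Δ* test 0 members were higher (4.35% of all genes) and 3 lower (7.53%), *ARG3* and *SER1* among them, with a median of −0.38, against −0.0016. None of the 3 remained on the TPM scale, 14 members were called without polyploid culture 3 and 0 without polyploid culture 2, and *SER1* (−0.89) was at −0.72 and no longer among the 3 called without the library that went against its label. Against cycling cells of the same strain, the change of polyploid *mad1Δ bub2Δ* cells was higher in 13 members (20.3% of all genes) and lower in 9 (21.8%). On the TPM scale, where the median gene itself stood at 0.82, the counts were 28 and 3. There *HIS1*, *LYS12*, *TRP3*, *ARO2* and *HOM2*, all among the 9, lay above 0. Among the 13 was *CPA1* at 2.12 ± 0.39, and *BAT2* led the 9, at −2.05 ± 0.30. In polyploid *cdc24-1 swe1Δ* cells it was higher in 3 (19.7% of all genes), *CPA1*, *SER3* and *GCN4*, and lower in 6 (18.3%), *LEU1*, *LEU9*, *BAT1*, *THR4*, *SER1* and *SER33*, or 3 and 2 on the TPM scale, with 18 called without polyploid culture 3 and 5 without cycling replicate 1.

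**Figure D5:**
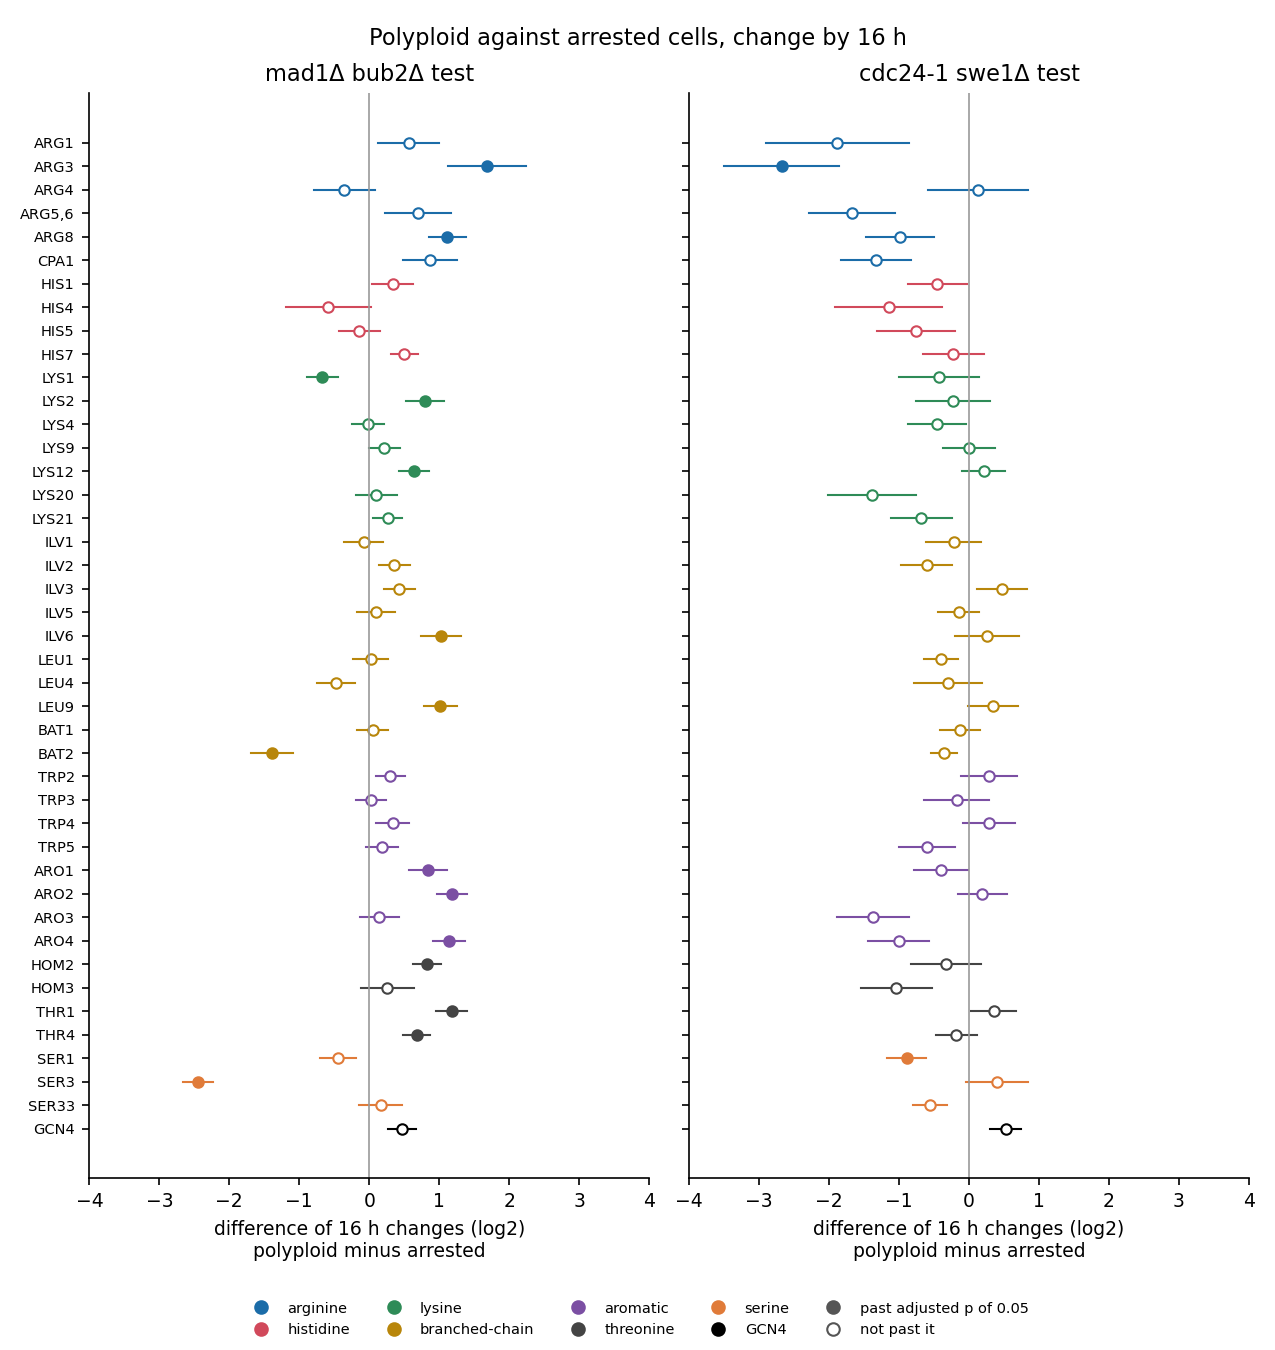
Difference between the log2 changes from 0 to 16 h of polyploid and arrested cells (horizontal axis, polyploid minus arrested, ± standard error) for 43 of the 44 members in the 2 tests, filled where the adjusted p was under 0.05. *SER3* stands at −2.45 and *ARG3* at 1.68 in the *mad1Δ bub2Δ* test, and *ARG3* at −2.68 in the *cdc24-1 swe1Δ* test.

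Few members followed DNA content over all libraries of a test. The slope, the log2 change per 100000 arbitrary units, was called where its p after Bonferroni adjustment was under 0.05. In the *mad1Δ bub2Δ* test 0 members were higher and 3 lower (0% and 6.82%, against 1.89% and 1.28% of all genes, 3.17% together). The 3 were *LYS20* at −0.44 ± 0.054 (adjusted p = 5.8e-06), *TRP3* at −0.17 ± 0.032 (0.035) and *SER1* at −0.27 ± 0.036 (2.9e-05). *TRP3*, of tryptophan synthesis, had 107, 87.9 and 82.3 CPM in polyploid cells at 16 h, against 139.6, 138 and 173 at 0 h, and its slope was not called when any of 7 of the 9 replicates was left out. None of these 3 slopes was called with cell type or the culture as a block in the fit, and *BAT2* was called in each of those fits instead. In the *cdc24-1 swe1Δ* test 1 member was higher and 0 lower (2.75% and 2.06% of all genes, 4.81% together), *GCN4* at 0.44 ± 0.058 (adjusted p = 2.7e-05), and 36 of 44 slopes lay above 0, with a median of 0.30, against 0.00071. The slope of *GCN4* was 0.52 with cell type and 0.53 with the culture as a block, and was called with neither, while the median of the 44 slopes turned to −0.25 and −0.30 there. *ARG1* had the steepest slope of the 44 in each test, of opposite signs and not called, −0.51 ± 0.13 in the first and 1.16 ± 0.48 in the second. Slopes differed between the tests (*mad1Δ bub2Δ* minus *cdc24-1 swe1Δ*) for 0 members by edgeR (1.46% of all genes higher and 1.32% lower, 2.78% together), 1 by DESeq2 and 1 by limma. By edgeR 26 of the 44 had an unadjusted p under 0.05, a larger share than the 1824 of all 6148 genes. With Benjamini-Hochberg adjustment 3 members were higher and 10 lower in the *mad1Δ bub2Δ* test (8.75% and 9.78% of all genes). In the other 14 were higher and 2 lower (16.4% and 13.6%), and the difference was called higher for 0 and lower for 15 (6.78% and 9.61%).

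Genes with and without the Gcn4 motif differed little in their median change in polyploid *cdc24-1 swe1Δ* cells by 4 h, which was 0.99 over the 30 enzyme genes with TGACTC and 0.97 over the 13 without. At 16 h it was −0.64 and −0.66 in those cells and −0.061 and −0.30 in polyploid *mad1Δ bub2Δ* cells. The 5 genes with 2 or more matches had a median of 1.25 at 4 h in polyploid *cdc24-1 swe1Δ* cells. At 16 h theirs was −0.49 in those cells and 0.33 in polyploid *mad1Δ bub2Δ* cells. *LEU1*, which carries the Leu3 pattern and no TGACTC, fell in all 4 polyploid and arrested groups at 16 h.

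The other genes of these pathways, a list of 23, were called in both directions. In polyploid *mad1Δ bub2Δ* cells 6 were higher and 8 lower at 16 h (23.2% and 21.7% of all genes), in polyploid *cdc24-1 swe1Δ* cells 4 and 8 (26.0% and 23.4%). The counts were 5 and 12 in arrested cells of the first test (31.7% and 26.1%) and 5 and 9 in those of the second (28.0% and 23.9%), or 4 and 9 without the library that went against its label. These counts on the TPM scale were 7 and 3 and 10 and 2 in the polyploid and 11 and 2 and 9 and 3 in the arrested cells. *LEU3*, the activator of leucine genes, rose in all 4 groups, by 1.31 in polyploid and 0.91 in arrested cells of the *mad1Δ bub2Δ* test and by 0.87 and 0.56 in the other. *GDH1*, the main glutamate dehydrogenase of growing cells, fell in all 4 (−0.82, −1.23, −0.59 and −1.17 in the same order). *ASN2*, asparagine synthetase, and *HOM6*, which completes homoserine, also fell in all 4. *LEU3* also rose on the TPM scale in all 4 groups, where 6 of the 12 falls of *GDH1*, *ASN2* and *HOM6* were called and the value of *GDH1* in polyploid *cdc24-1 swe1Δ* cells stood at 0.03. At 4 h in polyploid *cdc24-1 swe1Δ* cells 11 of the 23 were higher (17.0% of all genes) and 1, *ARO9*, lower (11.7%). *GCN2*, the kinase upstream of Gcn4, rose in all 4 groups at 16 h, by 0.77 ± 0.15 in polyploid and 0.80 ± 0.15 in arrested cells of the *mad1Δ bub2Δ* test, and by 1.01 ± 0.14 and 0.37 ± 0.14 in the other. The changes differed in the second by 0.64 ± 0.20 (adjusted p = 0.033), not called on the TPM scale (0.68). Of the other 3 genes upstream, *GCN1* fell in both arrested groups (−0.62 and −0.57), *GCN20* fell in arrested *MAD1 BUB2* cells (−0.68), and *GCN3* passed in none of the 4. None of these 3 falls was called on the TPM scale, where *GCN1* (0.18) and *GCN20* (0.10) lay above 0 in arrested *MAD1 BUB2* cells.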

How the data were processed

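Estimated counts per gene were deposited by the authors, who ran nf-core/rnaseq (STAR alignment, Salmon quantification) on the poly(A) RNA reads with the S288C R64-1-1 genome, and the log2(TPM + 1) values in the second table were deposited by the authors as well. Whether counting used strand is not given in the sources used here. Estimated counts were rounded, filtered with filterByExpr and fitted per test (36 libraries) with edgeR 4.0.16 (TMM, quasi-likelihood, R 4.3.3), leaving 6025 and 6028 genes, or 6148 for the slope difference. Slopes on mean DNA content were called after Bonferroni adjustment and contrasts of conditions after Benjamini-Hochberg adjustment over all genes, both at 0.05, and ± is the standard error of the coefficient. The fits were tested on simulated data.

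A single member is part of all counts and medians and is otherwise not reported here. The 44 members, the pathway lists and the tests were chosen with earlier results of these data known. Values in every culture were given for *GCN4*, members called in a slope test, the called member with the largest change at 16 h in polyploid cells per pathway and test, and 5 isozyme pairs. *ARG3*, *HIS4*, *ARG1*, *LEU4* at 4 h and other members with values per culture were added after their values had been seen. The difference of 4 h changes was also added then. Motifs were searched on both strands in the 300 bases before each start codon of the R64 reference genome, and 30-base sites are printed because starts of transcripts are not annotated in the reference used.

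Alternatives were DESeq2 1.42.0, limma 3.58.1 on log2(TPM + 1), no filter, removal of ribosomal RNA, another threshold, cell type, culture or replicate number as a term, single cultures or libraries left out and fits on fewer libraries. Times of a replicate share a culture per the study's methods, and their deviations had a median correlation of 0.058 and 0.021 in the *mad1Δ bub2Δ* and *cdc24-1 swe1Δ* tests. Polyploid and cycling libraries with the same number at 0 h correlated at 0.12 to 0.39 and 0.26 to 0.42 over all genes.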

Additional observations from a re-analysis of the deposited data

Results flagged for a closer look

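The results listed here are differences between the changes of 2 cell types, each tested by edgeR as an interaction with Benjamini-Hochberg adjustment, and are given as values. In the *mad1Δ bub2Δ* test the change over 16 h differed between polyploid and arrested cells for 15 members and between polyploid and cycling cells for 22, and the change over 4 h differed between polyploid and arrested cells for 12. These counts were 3, 9 and 5 in the *cdc24-1 swe1Δ* test. Single members are given for the difference between polyploid and arrested cells at 16 h. In the *mad1Δ bub2Δ* test it was 1.68 for *ARG3* and 1.12 for *ARG8* of the arginine genes. It was −0.67 for *LYS1*, 0.80 for *LYS2* and 0.63 for *LYS12* among the lysine genes. Among the branched-chain genes it was 1.02 for *ILV6*, 1.02 for *LEU9* and −1.39 for *BAT2*. Among the aromatic genes it was 0.85 for *ARO1*, 1.19 for *ARO2* and 1.15 for *ARO4*. The threonine genes *HOM2*, *THR1* and *THR4* stood at 0.82, 1.18 and 0.68, and *SER3* at −2.45. In the *cdc24-1 swe1Δ* test it was −2.68 for *ARG3* and −0.89 for *SER1*. All groups held 3 cultures, too few for a search for outlying samples.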

How the results depend on the processing

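Counts are of members called among the 44, and 62 single results were tested again. Of these, 27 kept their call under every alternative and 35 lost it under at least 1, without a change of sign, while members outside these 62 did change sign on the TPM scale. With DESeq2 the counts were 6 for the slope in the *mad1Δ bub2Δ* test, 1 for the slope difference, and in the *cdc24-1 swe1Δ* test 3 for cycling cells at 16 h, 8 for arrested cells at 4 h, and 5 and 13 for the difference between polyploid and arrested changes at 16 and 4 h. With limma on log2(TPM + 1) they were 1 and 2 for the slopes of the *mad1Δ bub2Δ* and *cdc24-1 swe1Δ* tests, 1 for their difference and 8 for the polyploid-arrested difference at 16 h in the *mad1Δ bub2Δ* test. By limma the *cdc24-1 swe1Δ* test had 9 for polyploid cells at 16 h, 18 at 4 h, 0 for cycling cells, 5 for the polyploid-cycling difference, 3 for the strains at 0 h, and 0 for the polyploid-arrested difference at 16 and at 4 h. A Benjamini-Hochberg threshold gave 13, 16 and 15 for the 3 slope tests. Cell type as a covariate gave 1 for the *mad1Δ bub2Δ* slope, and 4 were called for the *cdc24-1 swe1Δ* slope without arrested cells.

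With the culture as a replicate block 1 member was called for the slope in the *mad1Δ bub2Δ* test, 0 for that in the *cdc24-1 swe1Δ* test and 2 for its cycling cells, and no other count left the range of 1.5 times. The fit on the compared libraries alone called 7 for cycling, 2 for polyploid (4 h) and 30 for arrested cells (4 h) of the *mad1Δ bub2Δ* test. It called in the *cdc24-1 swe1Δ* test 0 for cycling, 7 for polyploid (4 h) and 22 for arrested cells (4 h), 7 and 2 for the polyploid-arrested difference at 16 and 4 h, and 17 at 0 h. Without replicate 3 of polyploid and cycling *mad1Δ bub2Δ* cells, chosen after seeing the data, 20 were called at 4 h, 23 and 26 for the polyploid-arrested difference at 16 and 4 h, and 26 at 0 h. Without replicate 2 of polyploid and cycling *cdc24-1 swe1Δ* cells, also chosen then, 13 were called at 16 h, 0 for cycling cells, 0 and 5 for the polyploid-arrested and polyploid-cycling differences at 16 h, and 2 at 0 h.

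Leaving out 1 culture at a time gave 6 to 16 for cycling cells, 4 to 5 for arrested cells at 4 h, 9 to 22 and 8 to 19 for the polyploid-arrested difference at 16 and 4 h, and 9 to 21 at 0 h in the *mad1Δ bub2Δ* test. In the *cdc24-1 swe1Δ* test it gave 13 to 33 for polyploid and 9 to 15 for arrested cells at 16 h, 0 to 3 for cycling cells and 9 to 36 for polyploid cells at 4 h. It gave 0 to 14 and 0 to 34 there for the polyploid-arrested difference at 16 and 4 h, 5 to 18 for the polyploid-cycling difference, and 2 to 24 at 0 h. The cause of these shifts was not tested. The main limits are the 3 cultures per condition, of which single ones set the counts above, the single strain per cell type, the dependence of the direction of small changes on the scaling, and reads that isozymes may share. Genes of low level such as *ARG3* rest on few counts, 14 in the lowest library.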

Other observations

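*SNZ1* and *SNO1*, a neighbouring pair involved in vitamin B6 metabolism whose transcription also depends on Gcn4, rose in both polyploid and arrested cells of the *mad1Δ bub2Δ* test. *SNZ1* had 373, 337 and 265 CPM in polyploid cells at 16 h, against 18.0, 19.2 and 12.8 at 0 h (4.29 ± 0.21, adjusted p = 1.6e-15), and 406, 313 and 350.4 CPM in arrested cells, against 24.0, 22.4 and 21.9 (3.97 ± 0.21). The difference between them was not called (0.32 ± 0.27), and cycling cells stayed at 15.2, 16.2 and 18.8 CPM at 16 h, against 16.2, 18.6 and 9.17 at 0 h. At 4 h in polyploid *cdc24-1 swe1Δ* cells *SNZ1* had 474, 596 and 34.4 CPM, against 95.9, 151 and 66.2 at 0 h (1.82 ± 0.56), with culture 3 again without the rise. *SNO1* had 101, 138 and 2.70 CPM there, against 9.31, 15.8 and 5.23 (2.99 ± 0.76), and neither was called on the TPM scale. At 16 h in arrested cells of that test *SNZ1* was up by 2.54 and *SNO1* by 3.53, both called on either scale. That group includes the library that went against its label. In polyploid cells at 16 h the changes were 0.31 and 1.13, called on neither scale.

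The genes of arginine breakdown, *CAR1* (arginase) and *CAR2* (ornithine aminotransferase), were set apart from those of its synthesis by the same cultures. In polyploid *cdc24-1 swe1Δ* cells at 4 h *CAR1* had 128, 136 and 324 CPM and *CAR2* 58.6, 61.1 and 223 CPM in cultures 1 to 3, where *ARG1* had 1912, 1749 and 31.7 CPM, so culture 3 was highest in the first pair and lowest in the last. In polyploid *mad1Δ bub2Δ* cells *CAR1* fell to 36.8, 39.02 and 31.2 CPM at 4 h, against 259, 250.2 and 90.7 at 0 h (−2.49 ± 0.25, adjusted p = 3e-08). The slope of *CAR1* on DNA content differed between the tests (Bonferroni-adjusted p = 1.5e-08), at −0.26 ± 0.076 (not called) in *mad1Δ bub2Δ* and 0.83 ± 0.09 in *cdc24-1 swe1Δ*. In polyploid *mad1Δ bub2Δ* cells the mean level of *CAR1* rose again after 4 h, from 35.7 CPM to 101 CPM at 16 h.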
